A study of Homo sapiens with 6 samples.

Results

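The step from 6 h to 12 h of SpiD7 treatment was read from 2 of the 6 RNA-Seq libraries of the series, the single library of OVCAR5 cells exposed to 10 μM SpiD7 for 6 h and the single library exposed for 12 h. Both were taken by treatment time alone, and a vehicle library enters the contrast between them only through the scale factor of each. OVCAR5 cells are a human cancer cell line, and the labels name no engineered change in them. SpiD7 is a spirocyclic dimer built to attach covalently to cysteines on protein surfaces. The other libraries are 2 of cells given the vehicle DMSO and 2 of cells given SpiD7 for 2 h, and they serve below as a yardstick for how much libraries of 1 group differ and for placing each gene's 6 h level against the vehicle. With 1 library at each time there is no replicate check, so no p-value or standard error is given and every difference is between those libraries. The unit is FPKM, the number of sequenced fragments normalised for transcript length and library size, differences are of log2(FPKM + 0.1), and a gene was called when it passed 2-fold on that scale; in the gene lists, higher and lower without a fold count any difference from 0.

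Proteins that fail to fold in the endoplasmic reticulum (ER) set off the unfolded protein response (UPR), in which the sensors PERK, IRE1 and ATF6 act through different transcription factors. ATF6 and spliced XBP1 drive chaperones and ER-associated degradation (ERAD), whereas PERK slows translation and lets ATF4 and CHOP (DDIT3) through, the limb associated with amino acid supply and, when prolonged, with cell death. Unfolded protein in the cytosol acts instead through HSF1 on the heat shock chaperones. Cells that stop dividing lose the mRNAs of the mitotic machinery, which are made mainly in G2 and mitosis.

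Of 29982 gene symbols, 13189 averaged 1 FPKM or more in the 6 h and 12 h libraries. At 12 h, 229 of these genes (1.74%) were more than 2-fold higher and 261 (1.98%) were more than 2-fold lower than at 6 h, around a median difference of -0.06. Counting any difference, 43.1% of all genes were higher and 56.9% lower, and the counts of higher and lower list members below are to be read against these shares. The share of all genes above or below both DMSO libraries was not counted. Counts of list members placed that way therefore have no such yardstick and are descriptions. The scaling between the libraries bears on that balance, since 46.7% of the called genes were higher as scaled here and 58.2% after upper-quartile scaling, which shifted the median to 0.03. The step was smaller than the gap between libraries that share a treatment, because 1665 genes were past 2-fold between the DMSO libraries and 1338 between the 2 h libraries, against 490 genes here. From the first 2 h library to 6 h, a step that shares the 6 h library, 490 genes were higher and 48 lower. Among the genes counted, the earlier step thus ran mostly upward and the later step both ways. The FPKM minimum was set on the 6 h and 12 h libraries alone. It leaves out genes that fell from 2 h to a low level, which tilts the earlier split upward by an amount that was not measured.

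The second DMSO and second 2 h libraries stood apart from their partners, and some of the 12 h values lay in their direction. The deposited columns named for these libraries behave as means of both libraries of a group, and the second library was recovered from them; this reading rests on the values alone. Across 9166 genes of mean FPKM at least 5, the 12 h minus 6 h difference had a Pearson r of 0.32 with the DMSO pair difference and of 0.30 with the 2 h pair difference, given as a description because genes share their library and are not independent replicates. Of 26 genes that were more than 4-fold higher in the second library of both pairs, 21 lay nearer the first libraries at 6 h and 17 at 12 h, and 22 moved toward the second libraries between these times. Of 13 genes more than 4-fold lower there, 12 lay nearer the first libraries at 6 h and 8 at 12 h, and 9 moved toward the second. For each programme below the difference between the DMSO libraries is therefore given beside the step, and its part in the step was not tested.

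**Figure D1:**
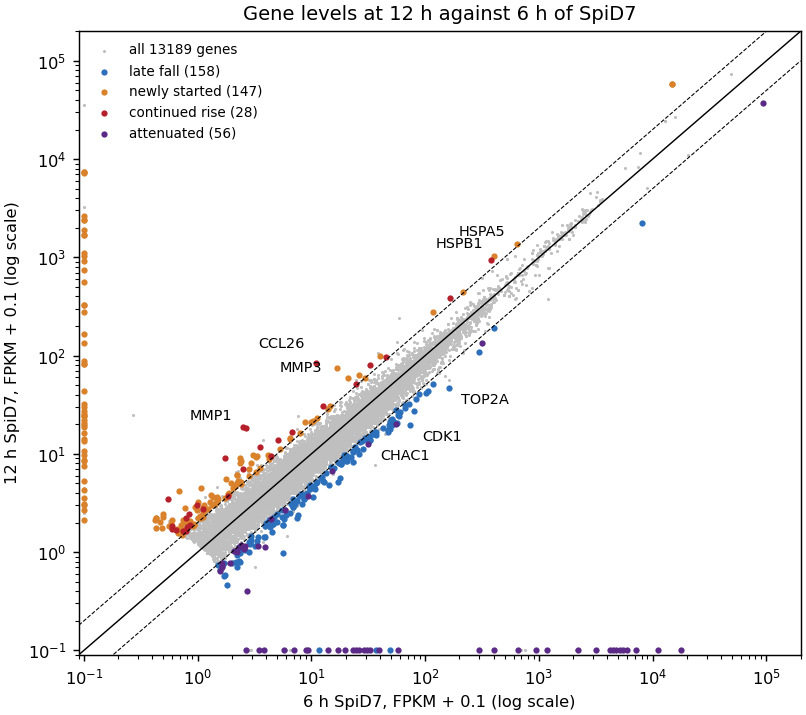
FPKM + 0.1 of each of 13189 genes at 12 h (vertical, log scale) against 6 h (horizontal, log scale), 1 point per gene, with the solid line at equality and the dashed lines at 2-fold. Colours mark the courses of the called genes relative to DMSO, and points on the axes are genes listed at 0 in 1 of the libraries, which make up 34 of the 56 genes called attenuated.

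Each called gene was then placed by its 6 h level relative to the 2 DMSO libraries, a description in which the 6 h library stands on both sides. A gene was called attenuated when it was at least 2-fold above the higher DMSO library at 6 h and more than 2-fold lower again at 12 h, and continued when it was that high at 6 h and more than 2-fold higher still at 12 h. It was called newly started when it was within 2-fold of DMSO at 6 h and then more than 2-fold higher and above both DMSO libraries at 12 h, and late fall names the reverse. There were 56 attenuated, 28 continued, 147 newly started and 158 late fall genes. Short RNA genes and genes listed at 0 weigh heavily on the attenuated call, since only 19 of the 56 are neither, against 25 of 28 continued, 95 of 147 newly started and 153 of 158 late fall genes.

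Most genes raised at 6 h that remained well measured were still above the vehicle at 12 h. Of 556 genes at least 2-fold above both DMSO libraries at 6 h, 34 were listed at 0 at 12 h, and these are left out of what follows, as are genes of low mean level, so the count leans toward genes that did not come down. Of 227 genes at least 2-fold above both DMSO libraries at 6 h that averaged 5 FPKM or more and had no value of 0, 183 were still at least 2-fold above both at 12 h and all 227 were above both. Their median step was -0.05, with 130 lower and 97 higher at 12 h, and 4 of them passed 2-fold downward and 11 upward. The 4 downward genes were CHAC1, MXD1 and the uncharacterized LOC102723428 and LOC102723551, the last listed at 0 in both DMSO libraries. LOC102723551 was also at 18927 FPKM in the first 2 h library and listed at 0 in the second, so its level is not reliable.

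**Figure D2:**
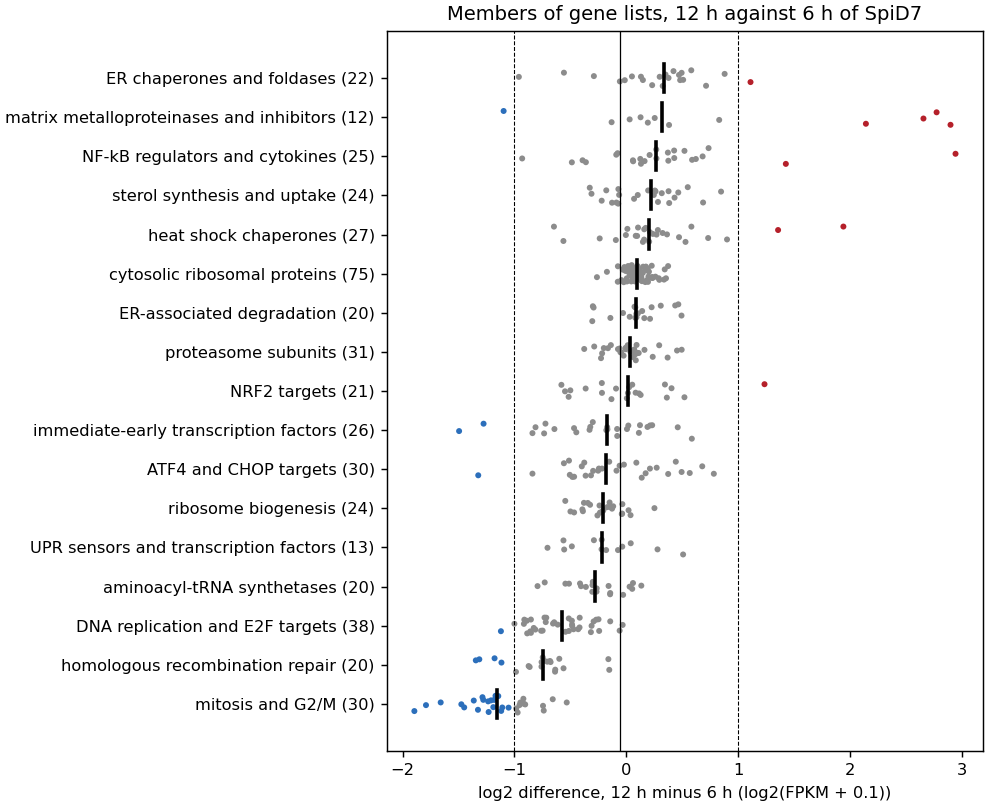
Log2 difference, 12 h minus 6 h, of each measured member of 17 gene lists (1 point per gene, numbers of members in parentheses), with thick bars at list medians, the thin vertical line at the median of all genes (-0.06) and dashed lines at 2-fold. Mitosis genes all lie to the left of 0, ER chaperones lie mostly to the right, and the 4 matrix genes past 2-fold upward stand apart from their list.

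The ER chaperones had the highest median step of the stress programmes. Of 22 ER chaperones and foldases, 17 were higher at 12 h than at 6 h and 1 passed 2-fold, with a list median of 0.34 against -0.06 for all genes; the medians of the DMSO pair and of the 2 h pair were of like size, both 0.35. HSPA5 encodes BiP, the ER Hsp70 that holds unfolded chains and keeps the UPR sensors inactive. It stood at 197 and 337 FPKM in DMSO, 229 and 354 after 2 h, 638 after 6 h and 1378 after 12 h, a 2.16-fold step. HSPA5 at 6 h was already above both DMSO libraries but short of 2-fold over the higher one, which is why it falls among the newly started genes. HSP90B1, the ER Hsp90 paralog GRP94, was at 288 and 473 FPKM in DMSO, 313 and 502 after 2 h, 527 after 6 h and 970 after 12 h, 1.84-fold higher. SDF2L1, a partner of BiP in the ER lumen, went from 38.7 at 6 h to 63.5 FPKM at 12 h, against 27.9 and 31.4 in DMSO. For HSPA5, HSP90B1 and SDF2L1 the step was larger than the difference between the DMSO libraries (0.77, 0.72 and 0.17 on the log2 scale), and for all 3 the 12 h library was the highest of the 6. The 2 lowest of the 5 members that were lower were FKBP11, an ER prolyl isomerase, at 2.72 and 1.35 FPKM, and DNAJC10, a disulfide reductase of ERAD, at 30.5 and 20.7 FPKM at 6 h and 12 h.

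The ER stress element, the bipartite site (CCAAT, 9 bases, CCACG, searched on both strands) to which ATF6 binds with NF-Y, was found in 9 of 32 promoters (28.1%) of the 21 matched ER chaperone genes, against 27 of all 35116 RefSeq promoters (0.0769%) of the same 300 bases. It was found in 0 of 43 promoters of the ATF4 and CHOP target list and in 1 of 18 of the UPR sensor and factor list. A match describes the letters in the window and is not a site of binding, and promoters of 1 gene can overlap. The sequences with a match for 3 genes that were higher at 12 h are shown because they set this list apart from the other UPR lists, with the outer parts of the element in capitals, all from RefSeq (GRCh38.p14) and read along the gene's own strand, upstream of the transcription start. HSPA5 is at chr9:125241361-125241439 on the minus strand, HSP90B1 at chr12:103930186-103930369 and CRELD2, an ER protein with disulfide isomerase activity, at chr22:49918524-49918602, both on the plus strand.
HSPA5: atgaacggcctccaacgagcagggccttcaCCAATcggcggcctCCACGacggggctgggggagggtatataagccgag
HSP90B1: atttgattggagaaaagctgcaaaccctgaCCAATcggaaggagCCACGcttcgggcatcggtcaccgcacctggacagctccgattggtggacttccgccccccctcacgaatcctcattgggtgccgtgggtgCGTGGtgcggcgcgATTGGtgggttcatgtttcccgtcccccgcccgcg
CRELD2: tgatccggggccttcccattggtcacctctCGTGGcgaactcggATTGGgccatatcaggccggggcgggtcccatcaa
The element begins 66 bases before the start in HSPA5 and 80 in CRELD2, and HSP90B1 holds 2, beginning 194 and 89 bases before it. CRELD2 itself was at 72.9 and 97.1 FPKM in DMSO, 79.8 after 6 h and 111 after 12 h. Some other motif searches of these windows found few matches. The C/EBP-ATF element (TGATGNAAT) was in 0 of 43 promoters of the ATF4 and CHOP target list and 0.991% of all promoters. The sterol element (TCACNCCAC) was in 1 of 23 promoters of the sterol list and 1.13% of all promoters.

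ERAD genes were higher by less. Of 20 measured genes 15 were higher, none passed 2-fold and the median was 0.09, beside a DMSO pair median of 0.14. The list was led by HERPUD1, a scaffold of the ERAD ubiquitin ligase, which went from 248 FPKM at 6 h to 350.0 at 12 h (1.41-fold), and by the channel component DERL2, from 25.7 to 35.5 FPKM. EDEM3, a mannosidase that marks glycoproteins for disposal, was at 7.71 and 6.23 FPKM. The increment of HERPUD1 of 0.49 on the log2 scale was smaller than the 1.21 between the DMSO libraries, although its 12 h level was the highest of the 6 libraries.

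Heat shock chaperones were mostly higher at 12 h. Of 27 measured members 22 (81.5%, against 43.1% of all genes) were higher and 2 passed 2-fold (7.41%, against 1.74%), with a median of 0.20 here against 0.82 for the step from the first 2 h library to 6 h; the 2 steps share the 6 h library. The DMSO pair differed in the other direction (median -0.53), and 26 of 27 members were above both DMSO libraries at 6 h and at 12 h. The members past 2-fold were both small heat shock proteins, which hold denatured proteins without using ATP. HSPB1 (HSP27) was at 200.3 and 231 FPKM in DMSO, 217 and 266 after 2 h, 406 after 6 h and 1040 after 12 h, 2.56-fold higher. Its step of 1.36 on the log2 scale was larger than the DMSO pair difference of 0.21. CRYAB (αB-crystallin) was at 1.97 and 2.81 FPKM in DMSO, 1.24 and 1.82 after 2 h, 2.28 after 6 h and 9.03 after 12 h, so that 12 h was the only one of the 6 libraries above 3. SERPINH1 (HSP47), an ER chaperone of collagen under heat shock control, went from 390.1 to 729 FPKM against 183 and 182 in DMSO. Of the Hsp70 genes, HSPA6 went from 620.0 to 1030 FPKM, HSPA1A from 959 to 1330 and HSPA1B from 1049 to 1172, the last 2 being near-identical copies between which reads cannot be assigned with certainty. HSPA7, a close copy of HSPA6 and subject to the same limit, is outside this list. It was listed at 0 in both DMSO libraries, was at 3.16 FPKM in both 2 h libraries, and went from 24.7 to 51.5 FPKM, 2.09-fold higher. HSPA1L, the testis-enriched Hsp70, had the largest decrease of the list, from 12.9 to 8.19 FPKM, and lay well above 0.58 and 0.64 in DMSO at both times.

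A heat shock element (GAANNTTC, both strands) was present in 16 of 39 promoters (41.0%) of the heat shock list and in 6.77% of all promoters. HSPB1 (chr7:76302461-76302528) and SERPINH1 (chr11:75562152-75562219), both on the plus strand, are shown as genes that went on increasing, with the element in capitals. It begins 182 and 71 bases before the start.
HSPB1: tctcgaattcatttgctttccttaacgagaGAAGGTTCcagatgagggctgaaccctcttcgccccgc
SERPINH1: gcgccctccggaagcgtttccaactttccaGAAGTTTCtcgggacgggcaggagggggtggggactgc

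Most sensors and transcription factors of the UPR were lower at 12 h. Of 13 measured members 10 were lower, 3 were higher, none passed 2-fold and the median was -0.22, whereas after upper-quartile scaling 8 were lower and 5 higher with a median of -0.13; the list's DMSO pair differed by 0.52 in median and its 2 h pair by 0.33. DDIT3 (CHOP), the factor linked to ER stress death, was at 13.9 and 46.3 FPKM in DMSO, 99.1 and 188 after 2 h, 203 after 6 h and 124 after 12 h. EIF2AK3, the PERK kinase, was at 27.8 and 18.9 FPKM at 6 h and 12 h, and ATF6 at 7.05 and 4.74. DDIT3 and EIF2AK3 stayed above both DMSO libraries at 12 h, and for both the decrease (0.70 and 0.56 on the log2 scale) was smaller than the DMSO difference (1.72 and 0.63). PPP1R15A (GADD34), which returns eIF2α to its unphosphorylated state, was at 458 and 471 FPKM and ATF4 at 343 and 326, so neither moved by 0.1 on the log2 scale.

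The ATF4 and CHOP target list went both ways. Of 30 measured members 19 were lower (63.3%, near the 56.9% of all genes) and 11 higher, or 16 and 14 after upper-quartile scaling, 1 passed 2-fold (lower) and the median was -0.18, whereas the medians of the DMSO and 2 h pairs were -0.10 and -0.09. CHAC1, which degrades glutathione, was at 0.74 and 2.08 FPKM in DMSO, 15.5 and 14.2 after 2 h, 31.2 after 6 h and 12.4 after 12 h, a 2.51-fold decrease to a level under both 2 h libraries and still above both DMSO libraries. ATF3 was at 57.0 and 31.9 FPKM at 6 h and 12 h, both of them within the DMSO range of 1.06 to 99.4. Genes of amino acid supply were found on both sides. Lower were SHMT2 of one-carbon metabolism (108 and 75.4 FPKM), the amino acid carrier SLC38A2 (179.5 and 126.5 FPKM) and asparagine synthetase ASNS (49.7 and 38.6 FPKM). The members with the highest FPKM were higher, SLC3A2, the heavy chain of amino acid exchangers, from 557 to 672 FPKM and its light chain SLC7A5 from 186 to 198. Also higher were TRIB3, a pseudokinase that restrains CHOP and AKT, from 55.5 to 82.4 FPKM, and SESN2, a leucine sensor upstream of mTORC1, from 27.3 to 38.6 FPKM; in DMSO these last 2 were at 12.9 and 11.1 and at 1.89 and 2.94. The aminoacyl-tRNA synthetases, many of them ATF4 targets, were lower in 16 of 20 genes with a median of -0.28 and none past 2-fold, beside a DMSO pair median of -0.38. Of these 20, 16 were above both DMSO libraries at 6 h and 7 at 12 h.

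MXD1, a MAX partner that represses proliferation genes, shared the course of CHAC1. Its FPKM was 1.11 and 3.38 in DMSO, 10.9 and 14.98 after 2 h, 15.1 after 6 h and 6.65 after 12 h, a 2.27-fold decrease to a level below both 2 h libraries. For CHAC1 and MXD1 the decrease (1.32 and 1.17 on the log2 scale) was smaller than the DMSO pair difference (1.38 and 1.52). Of the 4 attenuated genes of mean FPKM at least 5, 1 had a step larger than the differences of both library pairs. Over all 9166 genes of that mean level 2302 did.

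**Figure D3:**
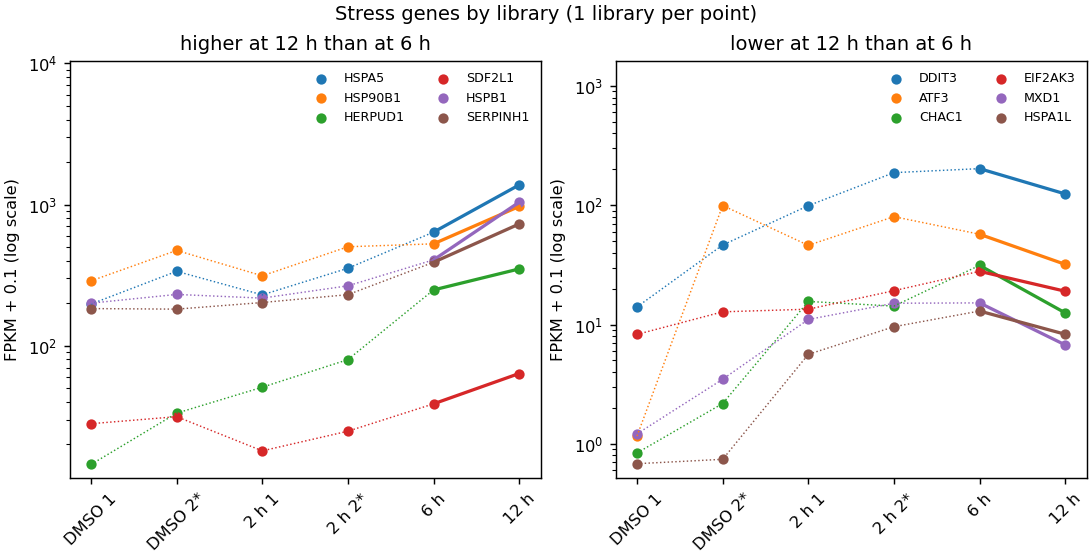
FPKM + 0.1 (log scale) of 6 stress genes that were higher and 6 that were lower at 12 h than at 6 h, in each of the 6 libraries, 1 library per point, with libraries marked * recovered from the deposited means. Thick segments join 6 h to 12 h and dotted lines only guide the eye; HSPA5 and HSPB1 reach 1378 and 1040 FPKM at 12 h, while CHAC1 returns from 31.2 to 12.4.

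Among the 8 largest increases of genes averaging 5 FPKM or more, 4 were of secreted proteins, CCL26, MMP1, MMP10 and MMP3. The largest was of the transcript RP11-10A14.5, known only by its clone name, at 0.75 and 0.62 FPKM in DMSO, 0.17 after 6 h and 25.0 after 12 h. CCL26 (eotaxin-3), a chemokine for eosinophils, was at 1.13 and 2.30 FPKM in DMSO, 0.95 and 2.43 after 2 h, 10.9 after 6 h and 84.4 after 12 h, 7.76-fold higher. IL1RL1, the IL-33 receptor ST2, was 2.72-fold higher, from 5.00 to 13.6 FPKM. CLU, the extracellular chaperone clusterin, was at 7.51 and 7.53 FPKM in DMSO, 19.1 and 19.4 after 2 h, 45.3 after 6 h and 96.6 after 12 h, with both pairs nearly equal and every later time above the one before. In CCL26 and CLU the steps of 2.94 and 1.09 on the log2 scale exceeded the differences of both pairs.

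Among 12 measured genes of the list of matrix metalloproteinases, their inhibitors and the urokinase system, 4 (33.3%, against 1.74% of all genes) were more than 2-fold higher, 1 (8.33%, against 1.98%) was more than 2-fold lower and the median was 0.32, against 0.03 and -0.02 for the DMSO and 2 h pairs. The interstitial collagenase MMP1 was at 0.38 and 0.47 FPKM in DMSO, 0.45 and 0.30 after 2 h, 2.38 after 6 h and 18.4 after 12 h. MMP10 (stromelysin-2) was at 0.05 and 0.10, 0.09 and 0.41, 2.55 and 18.0 FPKM in the same order. MMP3 (stromelysin-1) was at 10.9 and 6.13 FPKM in DMSO, 11.4 and 5.56 after 2 h, 16.7 after 6 h and 74.0 after 12 h. For all 3 the 12 h library was at least 4 times as high as any other library, and MMP1 and MMP10 had the same order of libraries at the top, 12 h and then 6 h.

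These 3 genes are neighbours on chromosome 11, within 73.3 kb (chr11:102770503-102843803, GRCh38), and all lie on the minus strand. Going outward from them, MMP12, next to MMP3, was also higher, at 1.66 and 5.42 FPKM at 6 h and 12 h against 0.88 and 1.27 in DMSO, and MMP13 beyond it was at 0.28 and 0.73 FPKM, under the minimum of 1. On the other side MMP8 was at 0.02 FPKM at 6 h and listed at 0 at 12 h, MMP27 was listed at 0 in both, MMP20 was listed at 0 at 6 h and at 0.04 at 12 h, and MMP7 was at 0.48 FPKM at 6 h and listed at 0 at 12 h. The higher values thus covered the adjoining MMP10, MMP1, MMP3 and MMP12, which were looked up for their position after the values of the first 3 were seen. In the deposited table MMP1 and MMP3 carry the same locus span, while their FPKM differ in every library.

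The urokinase system did not move as 1 unit. SERPINB2 (PAI-2), an inhibitor of urokinase, was listed at 0 in all 4 DMSO and 2 h libraries and was at 0.44 FPKM at 6 h and 3.33 at 12 h. The urokinase receptor PLAUR was at 32.7 and 46.5 FPKM in DMSO, 64.1 after 6 h and 114 after 12 h, and urokinase itself, PLAU, was at 73.7 and 57.3 in DMSO, 66.6 after 6 h and 31.1 after 12 h. PLAU at 12 h was the lowest of the 6 libraries by a narrow margin, since the second 2 h library was at 31.2 FPKM.

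The letters TGANTCA (both strands) include the TGACTCA site of AP-1, the FOS and JUN dimer. They were present in 7.71% of all promoters, 5.35% of those of genes past the FPKM minimum and 4 of 11 promoters (36.4%) of the 10 matched genes of the matrix list. The windows of MMP10 (chr11:102780659-102780725, minus strand), SERPINB2 (chr18:63887573-63887639, plus strand) and SBSN (chr19:35528346-35528514, minus strand), 3 of the most increased genes that hold it, are shown with the motif in capitals. The middle base is A in MMP10 and SERPINB2, so that of these 3 only SBSN holds the TGACTCA form. MMP1 and MMP3 were not matched to a promoter here.
MMP10: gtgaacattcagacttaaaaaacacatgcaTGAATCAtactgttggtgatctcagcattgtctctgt
SERPINB2: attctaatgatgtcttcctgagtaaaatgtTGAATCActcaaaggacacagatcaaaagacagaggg
SBSN: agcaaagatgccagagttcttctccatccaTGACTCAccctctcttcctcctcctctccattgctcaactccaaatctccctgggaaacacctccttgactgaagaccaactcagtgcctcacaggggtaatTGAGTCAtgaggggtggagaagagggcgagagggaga
Over the 41 newly started and continued genes of mean FPKM at least 5, of which 26 were matched, 5 of 32 promoters (15.6%) held the motif.

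**Figure D4:**
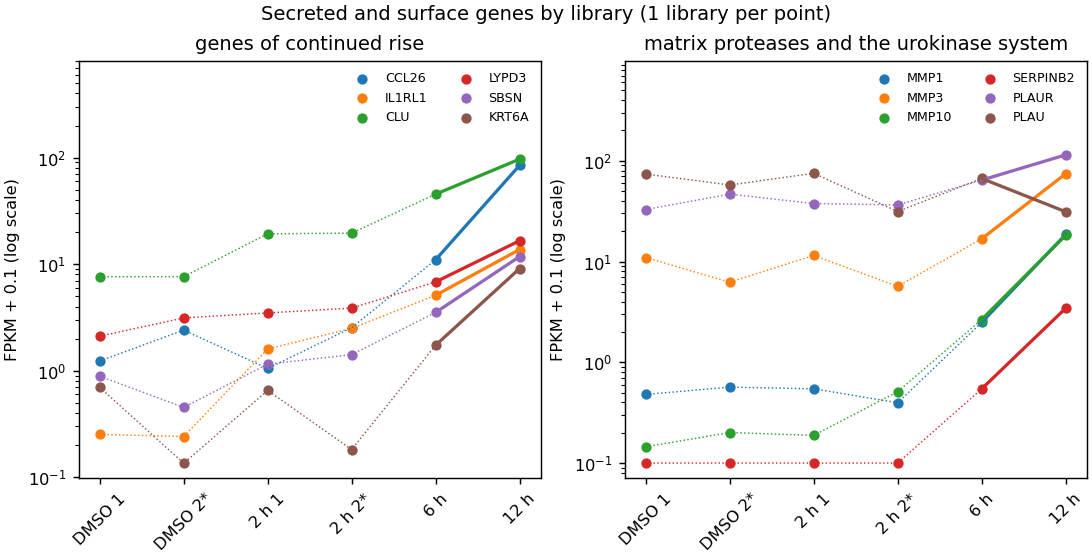
FPKM + 0.1 (log scale) of 6 genes of continued rise (left) and of 6 matrix protease and urokinase genes (right) in each library, 1 library per point, with libraries marked * recovered from the deposited means. Thick segments join 6 h to 12 h and dotted lines only guide the eye; CCL26 reaches 84.4 and MMP3 74.0 FPKM at 12 h, and PLAU goes from 66.6 to 31.1.

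Genes of stratified epithelium and its barrier were divided. Of 36 listed genes 20 were measured. Of these, 4 (20%, against 1.74% of all genes) were more than 2-fold higher and 1 (5%, against 1.98%) more than 2-fold lower. The median of 0.05 was near that of all genes, beside a DMSO pair median of -0.39. KRT6A, a keratin of wounded epidermis, was at 0.60 and 0.04 FPKM in DMSO, 0.55 and 0.08 after 2 h, 1.63 after 6 h and 8.98 after 12 h. SBSN (suprabasin) went from 3.42 to 11.7 FPKM and the serine protease KLK10 from 1.96 to 4.36, both above all other libraries. CLIC3, the fourth, went from 6.41 to 13.5 FPKM and lay below the second DMSO library at 15.1. The cornified envelope gene SPRR1B was the lower one, from 1.92 to 0.69 FPKM. LYPD3, a surface protein of migrating keratinocytes outside this list, was at 2.01 and 3.02 FPKM in DMSO, 6.70 after 6 h and 16.5 after 12 h.

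Of the 30 newly started genes of mean FPKM at least 5, 14 were more than 2-fold above the higher DMSO library at 12 h. In 20 the step was larger than the differences of both library pairs. Over all 9166 genes of that mean level these counts were 282 and 2302. The newly started call itself asks for a step past 2-fold that ends above both DMSO libraries, which raises both counts. HSPA5 and HSPB1 had the highest 12 h FPKM among the 30 newly started genes after the mitochondrial tRNA genes TRNC and TRNY. TRNC and TRNY carry identical values (14900 after 6 h and 58454 after 12 h, against 15843 and 11321 in DMSO). Both are shorter than is reliable for FPKM and were listed at 0 in the second 2 h library. PTGES, which makes prostaglandin E2, was at 20.4 and 27.8 FPKM in DMSO, 18.9 and 22.4 after 2 h, 20.8 after 6 h and 59.2 after 12 h, 2.85-fold higher with 5 libraries close together and 12 h alone above them. IGFBP6, a secreted binder of IGF2, was at 43.1 and 60.7 FPKM in DMSO, 40.1 after 6 h and 98.2 after 12 h. WNT9A, a secreted WNT ligand, was at 2.30 and 8.28 FPKM at 6 h and 12 h, with 1.62 or less in DMSO and at 2 h. MKNK2, a kinase of eIF4E, was at 29.5 and 59.5 FPKM at 6 h and 12 h against 25.8 and 41.9 in DMSO.

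Other increases ended inside or near the DMSO range. The long noncoding RNA NEAT1, the scaffold of paraspeckles, was at 91.4 and 236 FPKM in DMSO, 161 and 295 after 2 h, 117 after 6 h and 279.7 after 12 h, below the second 2 h library. UCA1, a long noncoding RNA of carcinomas, was at 136 and 331 FPKM in DMSO, 213 after 6 h and 448 after 12 h. LXN (latexin) and DHRS3, a retinal reductase, were 3.80- and 3.22-fold higher at 12 h than at 6 h, but at 13.8 and 24.3 FPKM they lay between the DMSO libraries, at 2.21 and 20.9 for LXN and 14.8 and 86.7 for DHRS3. For these 2 the call therefore does not place 12 h outside vehicle-treated cells.

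The largest coordinated decrease was of cell division genes. All 30 measured mitosis and G2/M genes were lower at 12 h than at 6 h, 19 of them more than 2-fold, where 1.98% of all genes were; the median was -1.16 and the folds ran from 1.45 to 3.73. The list was 30 of 30 lower under each of the other scalings. CDK1, the kinase that starts mitosis, was at 105 and 49.0 FPKM in DMSO, 111 and 46.7 after 2 h, 73.0 after 6 h and 19.6 after 12 h. TOP2A, which untangles chromosomes, was at 287 and 128 FPKM in DMSO, 289.9 and 110.3 after 2 h, 161 after 6 h and 46.5 after 12 h. AURKB, the kinase of the chromosomal passenger complex, was at 73.0 and 36.5 FPKM in DMSO, 56.7 after 6 h and 20.4 after 12 h, and UBE2C, the E2 of the anaphase-promoting complex, was at 347 and 119 in DMSO, 295 after 6 h and 108 after 12 h. The member that moved least was PTTG1 (securin), at 181 and 125 FPKM, and CKS2, with the highest FPKM, was at 336 and 179.6.

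The same genes separated the libraries of each pair. All 30 were lower in the second DMSO library than in the first, with a median difference of -0.99, and the 2 h pair differed by -1.20. At 6 h, 26 of the 30 lay between the DMSO libraries. At 12 h, 27 were below both, at a median 1.45-fold under the lower DMSO library and 2.75-fold at most, and 4 were more than 2-fold under it. In 14 of 30 the step was larger than the differences of both pairs, as it was in 3377 of all 13189 genes. Fewer dividing cells and less of these RNAs in each cell cannot be told apart in bulk RNA.

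**Figure D5:**
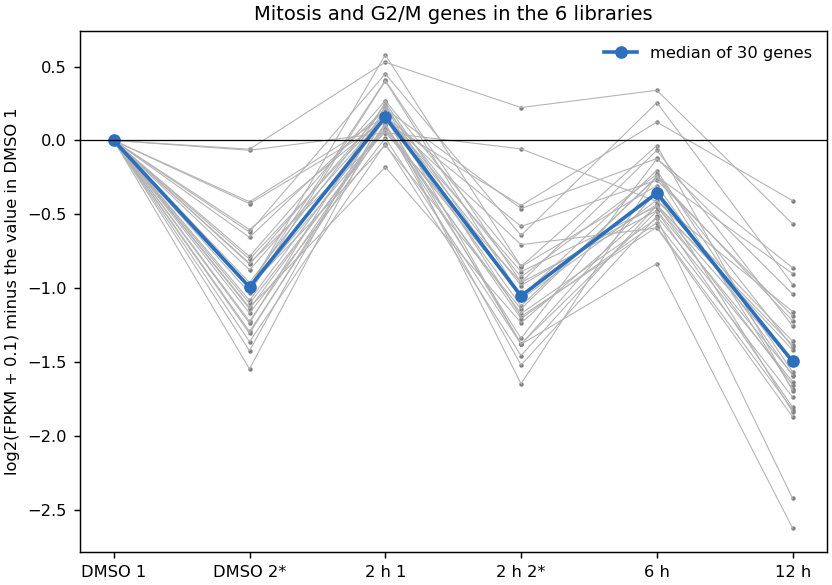
Log2(FPKM + 0.1) of 30 mitosis and G2/M genes in each library minus the value in the first DMSO library, 1 thin line per gene and the thick line at their median, with libraries marked * recovered from the deposited means. The median is at -0.99 in the second DMSO library, -0.35 at 6 h and -1.50 at 12 h; lines join libraries only to guide the eye.

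DNA replication and E2F target genes were lower in 38 of 38 cases with a median of -0.58, and 1 gene, GINS1 of the replicative helicase, passed 2-fold (17.3 and 7.91 FPKM at 6 h and 12 h). Under median-ratio and upper-quartile scaling 36 of the 38 were lower. The clamp PCNA went from 174 to 122 FPKM and thymidylate synthase TYMS from 163 to 90.2, and UNG, a uracil glycosylase, was at 40.7 and 39.8. Here the DMSO pair difference of -0.83 exceeded the step, and 14 of 38 were below both DMSO libraries at 12 h. All 20 homologous recombination genes were lower, with a median of -0.74 (DMSO pair -0.80). More than 2-fold lower were 4 of them (20%, against 1.98% of all genes). These include FANCI (28.3 and 11.1 FPKM) and FANCD2 (12.7 and 5.04), partners in crosslink repair, and the helicase BLM (10.3 and 4.49). Among 95 late fall genes of mean FPKM at least 5, 23 belong to these 3 lists and 94 were lower in the second library of both pairs, as were 55.9% of all genes at that level. In 57 of the 95 the step was larger than both pair differences, against 2302 of all 9166 genes at that level. At 12 h 10 of the 95 were more than 2-fold below the lower DMSO library, against 33 of all genes. The late fall call itself asks for a step past 2-fold that ends below both DMSO libraries, which raises both counts. Some symbols among the 95 carry identical values, BUB1B with PAK6 and AMIGO2 with LOC102724147.

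The cell cycle homology region, the letters TTTGAA at which the DREAM and MuvB complexes act on G2/M genes, was searched after the mitotic decrease was seen. It was present in 18 of 35 promoters (51.4%) of the mitosis list, 2 of 43 of the replication list, 15.2% of all promoters and 10.4% of those of genes past the FPKM minimum. Over the 95 late fall genes 49 of 110 promoters (44.5%) held it. The E2F letters TTTNNCGC were the reverse, with 23 of 43 promoters (53.5%) of the replication list, 4 of 35 of the mitosis list and 6.89% of all promoters. CDK1 (chr10:60778140-60778205) and PLK1 (chr16:23678830-23678888), both on the plus strand, are shown as members of the mitosis list with the 6 letters in capitals.
CDK1: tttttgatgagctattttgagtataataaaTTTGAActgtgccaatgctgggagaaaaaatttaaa
PLK1: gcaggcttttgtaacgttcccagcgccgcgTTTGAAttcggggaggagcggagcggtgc
In CDK1 they begin 161 and in PLK1 29 bases before the start. PLK1, a kinase of mitotic entry and spindle assembly, was at 126 and 53.8 FPKM in DMSO, 88.2 after 6 h and 40.6 after 12 h.

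Some genes outside the cell cycle lists, picked after their values were seen, had the same pattern across libraries. PDE1C, a calmodulin-dependent phosphodiesterase, was at 19.6 and 5.07 FPKM in DMSO, 17.2 after 6 h and 5.03 after 12 h, and DPYD, which degrades uracil, was at 25.5 and 12.6, 23.1 and 8.14 in the same order. The IL-7 receptor IL7R was at 53.6 and 14.1 FPKM in DMSO, 44.2 after 6 h and 15.8 after 12 h. In each of these 3 the 6 h library resembled the first DMSO library and the 12 h library was close to or below the second. Others did not share it: AMIGO2, an adhesion protein, was at 6.78 and 6.05 FPKM in DMSO, 8.51 after 6 h and 3.35 after 12 h. The symbol LOC102724147 carries the same values in every library, so they cannot be assigned to AMIGO2 alone.

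Immediate-early transcription factors were lower in 17 of 26 genes (65.4%, against 56.9% of all genes), with a median of -0.17. More than 2-fold lower were 2 of them (7.69%, against 1.98% of all genes). EGR1, a zinc finger factor induced by growth and stress signals, was at 5.80 and 348 FPKM in DMSO, 328 and 247 after 2 h, 161 after 6 h and 56.9 after 12 h, and EGR2 was at 0.11 and 82.7, 15.1 and 36.2, 5.65 and 2.28 in the same order. From 2 h to 12 h both had lower values at each later time, but the DMSO libraries spanned all of their 6 h and 12 h values, and the list's DMSO pair differed by 2.82 in median. Of the NF-κB regulators and cytokines 19 of 25 were higher, with a median of 0.27 beside a DMSO pair median of 2.65. At 12 h 6 of the 25 were above both DMSO libraries and 2 below both. Apart from CCL26 and IL1RL1 none passed 2-fold. The inhibitors of the pathway NFKBIA (27.3 and 41.1 FPKM) and TNIP1 (20.1 and 33.5) were higher and NFKBIZ, an atypical IκB, was lower (28.1 and 14.7).

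Among the remaining stress programmes most moved little. The DMSO pair medians were -0.17 for NRF2 targets, 0.54 for the autophagy list and 0.48 for sterol genes. NRF2 targets had a median of 0.02 with 12 of 21 higher; heme oxygenase HMOX1, induced from 36.7 and 36.1 FPKM in DMSO, was at 773 after 6 h and 529 after 12 h, the glutathione synthesis genes GCLC and GCLM were at 25.3 and 16.9 and at 36.5 and 25.8, and the ferritin light chain FTL was at 5675 and 8140. The 1 member past 2-fold, AKR1C1, was at 3.20 and 7.69 FPKM, within the DMSO range of 2.32 to 8.30. In the autophagy list 16 of 24 were higher (median 0.14), led by WIPI1 at 3.52 and 7.61 FPKM, GABARAPL1 at 27.4 and 54.7 and the receptor SQSTM1 (p62) at 315 and 609; the second DMSO library was at 9.62, 29.3 and 575. Sterol genes had a median of 0.22 with 15 of 24 higher and none past 2-fold, led by HMGCS1, the synthase of the mevalonate pathway (64.4 and 116 FPKM, DMSO 15.1 and 27.9), and INSIG1, the sterol sensor's retention factor (17.7 and 28.6 FPKM). GADD45A, a growth arrest gene of the p53 list, went from 93.6 to 182 FPKM against 21.1 and 41.2 in DMSO.

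Protein synthesis genes diverged by small amounts. Of 75 cytosolic ribosomal protein genes 66 were higher at 12 h, with a median of 0.10 beside a DMSO pair median of -0.13. Above both DMSO libraries were 70 at 12 h and 51 at 6 h, without a count over all genes to set beside them. Ribosome biogenesis factors were lower in 21 of 24, with a median of -0.21, as in TCOF1 of rRNA transcription (72.9 and 49.9 FPKM) and nucleolin NCL (957 and 813); the DMSO pair differed by -0.83. Proteasome subunits had a median of 0.04, with 17 of 31 higher, beside a DMSO pair median of -0.30. Under the other scalings 69 to 73 of the ribosomal protein genes and 20 to 24 of the proteasome genes were higher, and 18 to 21 of the biogenesis genes were lower.

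The cell type label was checked against its markers. All 12 epithelial markers passed the FPKM minimum, with KRT8 at 1870 and 2194 and KRT18 at 1723 and 1698 FPKM at 6 h and 12 h. Of 7 ovarian carcinoma markers 4 passed the minimum. The highest of them was WFDC2, at 121 FPKM at 6 h and 185 at 12 h. PAX8 was at 2.12 and 2.00 FPKM, WT1 was near 0 at 0.09 and 0.10 and SOX17 was listed at 0. An ovarian origin is therefore not borne out by all of these markers. Endothelial markers summed to 0.79 FPKM at 6 h and 1.81 at 12 h over 6 genes, fibroblast markers to 4.60 and 4.81 over 8, and leukocyte markers to 5.82 and 9.84 over 9, nearly all from CD14, while CD3D and MS4A1 were listed at 0 in both.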

How the data were processed

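RNA of OVCAR5 cells was sequenced as single-end 50-base reads. Per the labels and the study's methods the authors trimmed reads with Trim Galore, aligned them with TopHat2 2.0.8 and quantified genes with Cufflinks and Cuffdiff 2.1.1, and they deposited FPKM values from 4 comparisons. The methods name a mouse build, whereas the deposited loci are human (hg38). Columns of fold changes, p-values and q-values from the authors' own comparisons were not used, and 0 value columns were left unmatched to a sample. FPKM hold no read counts, so no count test or interval was possible. The study's methods give 1 approximate range of reads for all samples, and the exact depth of each library is unknown. Among values under 0.4 FPKM the most frequent ratio of 6 h to 12 h places the 12 h depth at 0.854 of that at 6 h. The low values of the 12 h library are therefore less precise.

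Rows were summed by symbol (33086 rows, 29982 symbols). The same first DMSO library appears in each comparison, and its median ratio to the first comparison gave the factors 0.972 for 6 h and 0.994 for 12 h by which each library was divided. The columns of the second comparison have a sharp lower limit at 0.526 (DMSO) and 0.509 (2 h) of the first library, as a mean of both libraries would, and the second library was recovered as the remainder. Values were compared as log2(FPKM + 0.1) over genes with a mean of at least 1 in the 6 h and 12 h libraries. No model was fitted. Groups come from the sample labels, and gene names come from the deposited table. Gene positions are from GENCODE 29 (GRCh38) and promoters, 250 bases before to 50 after each start, from RefSeq (GRCh38.p14).

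The 6 h and 12 h libraries, the gene lists and the rules were chosen with earlier results of these data known. The genes named were drawn from the 15 largest changes each way among genes of mean FPKM at least 5 that are above 0 in both libraries and whose symbols do not start as those of short RNA families do (a rule that leaves in the tRNA genes TRNC and TRNY), the ends and the 2 highest members of each list, the 8 highest genes of each course, and genes named in the study's RNA-Seq text. Other list members are named as examples after their values were seen, as were the MMP genes beside MMP1 and the TTTGAA motif. Symbols of the list of mitochondrially encoded mRNAs matched 0 rows. Scripts were checked on simulated data (Python 3.11.15, pandas 2.3.3, numpy 2.4.6). Alternatives changed the pseudocount, filter, scaling, treatment of repeated symbols and DMSO reference.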

Additional observations from a re-analysis of the deposited data

How the results depend on the processing

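The counts of genes called more than 2-fold higher and lower at 12 h, 229 and 261, moved to 132 and 167 with a pseudocount of 1, 1068 and 881 with no filter on low values, 104 and 156 with a mean FPKM of at least 5, 773 and 1179 at 1.5-fold and 73 and 52 at 4-fold. The split between higher and lower calls turned with the scaling, from 46.7% higher as scaled here to 54.4% after median-ratio scaling (272 and 228) and 58.2% after upper-quartile scaling (304 and 218). The course counts were less stable. The 56 attenuated genes became 314 with no filter, 33 at a mean FPKM of at least 5, 22 among genes above 0 in both libraries, 22 among rows marked testable by the authors' software and 19 without genes listed at 0 and short RNA genes, an alternative chosen after seeing the data. The 147 newly started genes became 97 with a pseudocount of 1, 730 with no filter, 68 at a mean of at least 5 and 95 without genes listed at 0 and short RNA genes. The 28 continued genes became 12 with a pseudocount of 1, 52 with no filter, 14 at a mean of at least 5 and 18 when the mean was taken over 4 libraries, and the 158 late fall genes became 93 with a pseudocount of 1, 338 with no filter and 99 at a mean of at least 5. With only 1 DMSO library as the reference, the attenuated count ranged from 74 (first library) to 103 (second library) and the continued count from 34 (second library) to 46 (first library).

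The median of the matrix list, 0.32, was 0.22 with no filter, 0.38 at a mean of at least 5, 0.25 with the mean over 4 libraries, 0.35 with values as deposited, 0.38 after median-ratio scaling and 0.41 after upper-quartile scaling. After these last 2 scalings the medians were -0.036 and -0.0043 for oxidative phosphorylation (-0.10), 0.059 and 0.090 for ER translocation and COPII (-0.0019) and -0.077 and -0.045 for housekeeping genes (-0.14). Of 420 values of list medians 408 moved by less than the spread they were set against, as did 2073 of 2100 values of named genes, and 0 of the called values changed sign. No paired analysis was possible because 6 h and 12 h have 1 library each. The exact depth of each library is unknown, genes near the minimum of 1 FPKM rest on few reads, and 103 of the 13189 genes were listed at 0 in 1 of the libraries.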

Other observations

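For further groups the DMSO pair median is given as the yardstick. Targets of YAP and TGF-β were lower in 13 of 18 (median -0.23, DMSO pair 0.84), led by the receptor kinase AXL at 213 FPKM at 6 h and 107 at 12 h and the matrix protein THBS1 at 131 and 69.2. THBS1 was at 129.7 and 135 FPKM in DMSO, so its 12 h value lay below both vehicle libraries, whereas AXL at 242 and 65.7 in DMSO stayed between them. SR splicing factors and CLK kinases were lower in 12 of 15 (median -0.20, DMSO pair -0.11), led by SRSF3 at 185 and 115 FPKM. Of 5 measured metallothionein and zinc transport genes 4 were lower (median -0.39, DMSO pair -0.58), with MT1E at 358 and 209 FPKM and MT2A at 918 and 660.0.

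Nuclear-encoded oxidative phosphorylation genes were lower in 27 of 43 (62.8%, against 56.9% of all genes, median -0.10 against -0.06, DMSO pair 0.05) and in 23 of 43 after upper-quartile scaling, and 24 of them were below both DMSO libraries at 12 h where 12 had been at 6 h. Interferon-stimulated genes were higher in 13 of 19 (median 0.27, DMSO pair 0.95), with 1 past 2-fold, the oligoadenylate synthetase-like OASL at 2.18 and 6.66 FPKM, within the DMSO range. Hypoxia and glycolysis genes were higher in 17 of 25 (median 0.09, DMSO pair 0.44), with NDRG1 the 1 past 2-fold at 13.4 and 27.0 FPKM, also within the DMSO range.

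Replication-dependent histones, 39 of 60 measured, did not follow the replication genes in direction (21 higher and 18 lower, median 0.08, DMSO pair 0.68). Medians near 0 were found for p53 targets (-0.01), apoptosis regulators (-0.03), MAPK feedback genes (0.02), fatty acid synthesis (0.01) and ER translocation and COPII (-0.0019). In the same order their DMSO pair medians were 0.57, 0.22, 1.66, -0.11 and -0.06. In the p53 list GADD45A and CDKN1A, the inhibitor of cyclin-dependent kinases, went opposite ways, CDKN1A being at 37.7 FPKM at 6 h and 24.1 at 12 h against 2.71 and 11.1 in DMSO. In the apoptosis list the decoy receptor TNFRSF10D was the highest, at 24.5 and 41.6 FPKM against 14.6 and 11.4 in DMSO. Housekeeping genes had a median of -0.14, with 10 of 15 lower, beside a DMSO pair median of 0.05. Of the 15 genes named in the study's RNA-Seq text 9 were higher and 6 lower at 12 h. Their median was 0.21 beside a DMSO pair median of 1.22. The lower ones were ATF3, CHAC1, EIF2AK3, ATF4, XBP1 and DDIT3.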
